A study of Mus musculus with 18 samples.

Results

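C/D box small nucleolar RNAs (snoRNAs) were described in CD4+ T cells of C57BL6 mice, in 2 groups of cells activated through dendritic cells, those with much Hopx (Hopx-high) and those with little (Hopx-low), and in naive cells. The members are the 69 features of the total RNA table whose name begins with Snord, out of 23219 features. A feature was tested when at least 3 of the 9 libraries had a level of at least 1 base per megabase covered, which 60 of the 69 did. The cells came from lymph nodes and spleen, and the labels give every sample, the naive samples included, an intraperitoneal injection of chimeric antibodies carrying an antigen to dendritic cells 5 days before collection. Each group had 3 libraries of total RNA depleted of ribosomal RNA. The labels give no age or sex of the mice, do not say how Hopx levels were separated, and leave unstated whether the replicates are different mice. Each p-value therefore reflects the spread between the libraries at hand, which may be technical.

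C/D box snoRNAs are short nuclear RNAs named for a pair of conserved sequence motifs, the C box and the D box. Most of them base-pair with ribosomal RNA and guide fibrillarin (Fbl), bound together with Nop56, Nop58 and Snu13, to methylate the ribose of a chosen nucleotide; a few take part in cutting the ribosomal RNA precursor. In vertebrates most are cut out of introns of a host gene, often a gene for a ribosomal protein, a ribosome assembly factor, or a noncoding transcript whose spliced form encodes no protein. Lymphocytes enlarge their nucleoli and make more ribosomes when they are activated.

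Of the 69 members, 68 had a position in RefSeq for GRCm38.p6, which is the mm10 build, on 16 chromosomes. They were 28 to 221 bases long, with a median of 68 bases. RefSeq placed 66 of them inside the span of another gene, called the host here, and 5 of these inside more than 1 span. Snord89 and Snord118 lay in no other gene's span, and Snord116 had no position. The positions are those of gene spans, so that they do not tell intron from exon.

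The reference tables held a sequence over 1 member, Snord33, and it is shown because it carries the C box and was also measured as a small RNA. Snord33 lies in Rpl13a at chr7:45126864-45126945 (GRCm38.p6). The hairpin annotated as Mir5121 (chr7:45126918-45126991, minus strand, the strand of Rpl13a) overlaps it by 28 bases, written in capitals in the hairpin. In the mature microRNA (chr7:45126925-45126945, minus strand), whose 5′ end falls on the last coordinate of Snord33, the capitals mark bases 6 to 12, a match to the C box. Both sequences are from RefSeq.
Mir5121 hairpin: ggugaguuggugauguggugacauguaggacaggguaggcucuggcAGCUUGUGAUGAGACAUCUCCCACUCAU
mmu-miR-5121: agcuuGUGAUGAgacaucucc

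Levels are bases of aligned sequence over a feature per megabase covered in the library. Libraries held 105 to 329 megabases. Hopx, the gene that names the groups, had levels of 34.2, 26.1 and 23.1 in Hopx-high libraries, 5.90, 7.49 and 7.59 in Hopx-low libraries, and 1.76, 0 and 1.15 in naive libraries. Its order followed the labels without overlap. The CD4 T cell markers Cd3e, Cd3g, Cd3d, Cd4 and Lck summed to levels of 3599 to 4633 in Hopx-high, 3809 to 4561 in Hopx-low and 4111 to 4889 in naive libraries. Lars2 took 18.9% of the bases in Hopx-high replicate 3 and 18.0% in Hopx-low replicate 1, against 0.525% to 6.55% in the other libraries.

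C/D box snoRNAs together took 1.46%, 1.19% and 1.54% of the bases in Hopx-high libraries, 1.84%, 1.44% and 1.71% in Hopx-low libraries, and 1.90%, 1.84% and 1.40% in naive libraries. These shares overlap between all 3 groups. Snord17 alone gave 16.1% to 50.8% of the C/D box bases of a library and Snord22 another 13.9% to 24.5%. Without that pair the share was 0.829%, 0.551% and 0.928% in Hopx-high libraries, 1.21%, 0.657% and 0.584% in Hopx-low libraries, and 0.710%, 0.608% and 0.589% in naive libraries. H/ACA box snoRNAs, the family that guides pseudouridylation, took 0.540%, 0.251% and 0.390% in Hopx-high libraries, 0.676%, 0.415% and 0.422% in Hopx-low libraries, and 1.36%, 1.17% and 0.695% in naive libraries. In that family every library of the activated groups lay below every naive library, on totals that include Lars2. The gap was narrow, from 0.676% in Hopx-low replicate 1 to 0.695% in naive replicate 3. Lars2 took 18.0% of the bases of the first and 0.525% of the second, so their order depends on whether it is counted in the totals.

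**Figure D1:**
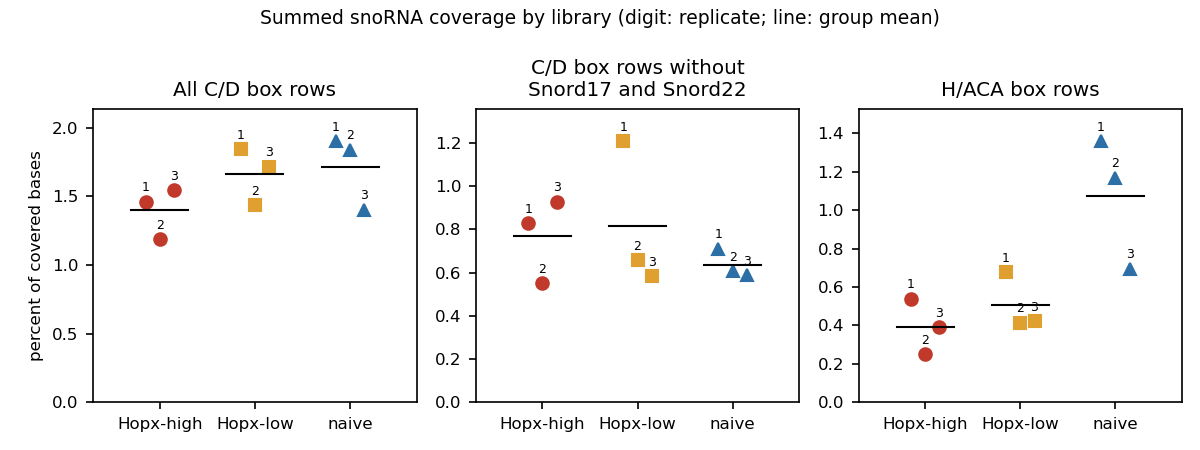
Percent of covered bases in each of the 9 libraries taken by all C/D box rows, by C/D box rows without Snord17 and Snord22, and by H/ACA box rows; each point is a library, the digit its replicate number and the line the group mean. The C/D box shares of the 3 groups overlap in both panels, while the H/ACA box shares of Hopx-high (0.251% to 0.540%) and Hopx-low (0.415% to 0.676%) libraries lie below those of naive libraries (0.695% to 1.36%). The totals include Lars2, which took 18.0% of the bases of Hopx-low replicate 1 and 0.525% of naive replicate 3.

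Per base of annotated length, the most covered members over the 9 libraries were Snord17, Snord22, Snord68, Snord83b, Snord32a, Snord35a, Snord33 and Snord12, at a mean of 25.2 to 5.21 on the scale of level per base, and the least covered tested member was Snord69 at 0.0251. Snord17, whose human counterpart guides methylation of the large-subunit ribosomal RNA, lies in Snx5 and is also the longest member. Its level was 3542, 4568 and 4009 in Hopx-high libraries, 2962, 5791 and 8709 in Hopx-low libraries, and 7428, 7812 and 5252 in naive libraries. Every Hopx-high library lay below every naive library, but Snord17 missed the threshold (log2 fold change -0.74 ± 0.34 SE, limma adjusted p = 0.147). The Hopx-low libraries spanned both other groups. Snord68, in Rpl13, had 803, 520 and 855 in Hopx-high libraries, 1766, 690 and 641 in Hopx-low libraries, and 420, 354 and 719 in naive libraries, so that its groups overlapped.

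Some members were at or near the floor. Snord116, Snord116l1, Snord116l2, Snord118, Snord123 and Snord14d are listed at 0 in every library. Snord116 and its relatives lie in the imprinted Prader-Willi region, and the host row of Snord116l1, Snord116l2 and Snord64 (C230091D08Rik, now Snhg14) was also listed at 0 throughout. Snord64 had a level of 0.306 in Hopx-high replicate 1 and was otherwise at 0. Snord118 (U8) and the Snord14 (U14) family act in cutting the ribosomal RNA precursor; Snord14a reached 2.22 in Hopx-high replicate 3, 0.581 in Hopx-high replicate 2 and 0.230 in naive replicate 3, with 0 elsewhere. Snord98, the shortest member, stayed at or below 0.494. The table has no row named Snord3, Snord13, Snord113, Snord114 or Snord115. Whether a listed 0 is an absent RNA or a failure of counting cannot be told apart.

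Hopx-high cells were compared with naive cells to ask how activated T cells of that Hopx level differ. In this comparison 10 of the 60 tested members rose and 6 fell, called at a limma adjusted p below 0.05 over all 11320 tested features. The 16 calls are 26.7% of the tested members, against 23.6% of all tested features. By direction, 16.7% of members rose, against 8.41% of all features, and 10% fell, against 15.1% of all features. The median log2 fold change of the members was -0.04, against -0.29 over all features tested. Hopx-high and naive libraries did not overlap for 18 of the 60 members, where the background is 39.1% of features. In bulk RNA a change in the RNA per cell and a change in the kinds of cells cannot be told apart.

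**Figure D2:**
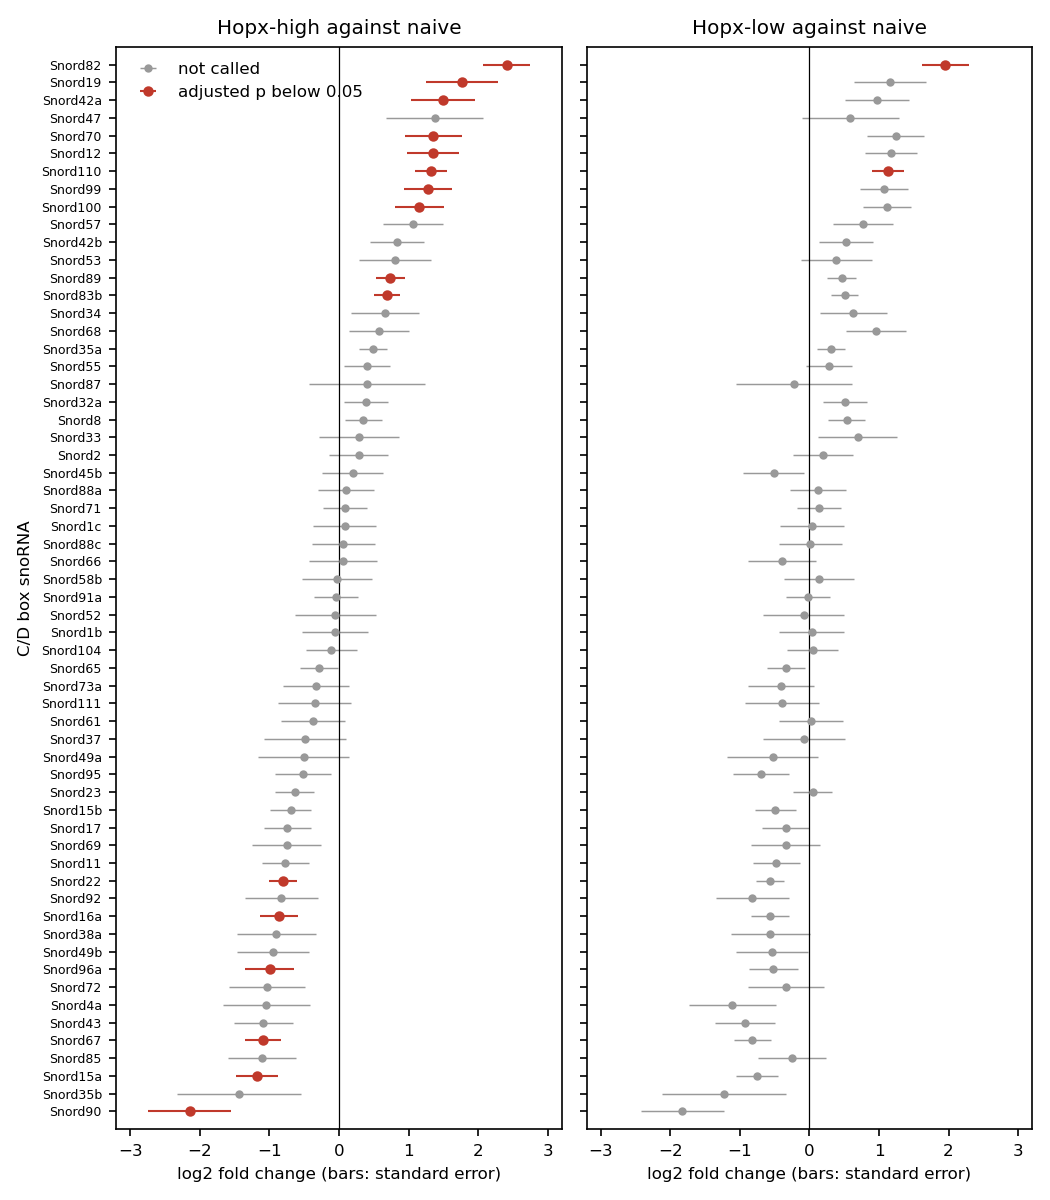
Log2 fold change (x axis; bars are the standard error) of the 60 tested C/D box snoRNAs, in Hopx-high cells on the left and Hopx-low cells on the right, both against the same naive libraries; red points have an adjusted p below 0.05. Both panels keep the same order of members, and the called values run from 2.41 for Snord82 to -2.15 for Snord90 in Hopx-high cells, with 16 and 2 members called in the left and right panel.

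Snord82 showed the largest rise among the called members. Its human counterpart guides methylation of the small-subunit ribosomal RNA, and it lies in the span of Ncl, the gene of nucleolin, a major nucleolar protein, at chr1:86356260-86356327. Its level was 373, 247 and 372 in Hopx-high libraries, 369, 184 and 195 in Hopx-low libraries, and 86.8, 76.7 and 32.8 in naive libraries. All 6 activated libraries lay above all 3 naive libraries. The log2 fold change was 2.41 ± 0.34 (SE) in Hopx-high cells (limma adjusted p = 0.000104) and 1.95 ± 0.34 in Hopx-low cells (limma adjusted p = 0.00153).

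Snord110 is another small-subunit guide and lies in Nop56, the gene of a core protein of the C/D particle itself, at chr2:130275515-130275573. It had levels of 295, 237 and 360 in Hopx-high libraries, 316, 253 and 212 in Hopx-low libraries, and 107, 86.3 and 171 in naive libraries. Both activated groups lay above the naive group without overlap. Its log2 fold change was 1.32 ± 0.23 in Hopx-high cells (limma adjusted p = 0.0002) and 1.13 ± 0.23 in Hopx-low cells (limma adjusted p = 0.00221).

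The other small-subunit guides that rose in Hopx-high cells were Snord19, Snord42a, Snord70 and Snord100. Snord19, in Gnl3, the gene of nucleostemin, was at 5.13, 5.61 and 24.3 in Hopx-high libraries, 5.30, 5.31 and 6.30 in Hopx-low libraries, and 3.49, 1.83 and 1.04 in naive libraries, a log2 fold change of 1.77 ± 0.52 in Hopx-high cells (limma adjusted p = 0.0167). Hopx-high replicate 3 stands apart from the other 2 libraries of its group. The same library was the highest for Snord42a, in Rpl23a, at 9.09, 15.1 and 51.3 in Hopx-high libraries, 12.4, 13.1 and 14.1 in Hopx-low libraries, and 6.87, 7.42 and 4.72 in naive libraries (log2 fold change 1.49 ± 0.46, limma adjusted p = 0.0216). Snord70, in Nop58, the gene of another core particle protein, reached 32.0, 13.5 and 30.7 in Hopx-high libraries and 43.4, 14.7 and 15.9 in Hopx-low libraries, against 8.31, 7.57 and 10.3 in naive libraries (Hopx-high log2 fold change 1.36 ± 0.41, limma adjusted p = 0.0188). These 3 members did not overlap between Hopx-high and naive libraries. Snord100, in Rps12, did overlap, with 39.9, 59.1 and 77.5 in Hopx-high libraries and 22.4, 14.8 and 46.2 in naive libraries (log2 fold change 1.16 ± 0.35, limma adjusted p = 0.0211).

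Among guides for the large-subunit ribosomal RNA, Snord12 and Snord99 rose and Snord15a fell. Snord12, in the noncoding gene Zfas1, had levels of 561, 321 and 425 in Hopx-high libraries, 759, 288 and 238 in Hopx-low libraries, and 191, 137 and 173 in naive libraries, a log2 fold change of 1.36 ± 0.37 in Hopx-high cells (limma adjusted p = 0.023). Snord99, in the noncoding gene Snhg12, had 47.4, 35.5 and 102 in Hopx-high libraries, 72.1, 35.0 and 44.0 in Hopx-low libraries, and 23.9, 28.6 and 16.4 in naive libraries, a log2 fold change of 1.28 ± 0.34 in Hopx-high cells (limma adjusted p = 0.00974). Both lay above the naive libraries in all 6 activated libraries. Snord15a, in Rps3, had 93.7, 32.9 and 60.4 in Hopx-high libraries, 96.4, 81.8 and 58.5 in Hopx-low libraries, and 160, 144 and 96.9 in naive libraries, a log2 fold change of -1.18 ± 0.30 in Hopx-high cells (limma adjusted p = 0.00646). Snord96a, whose human counterpart guides methylation of the 5.8S ribosomal RNA and which lies in Rack1, fell by 1.00 on the log2 scale (limma adjusted p = 0.0449), with 43.9, 24.0 and 30 in Hopx-high libraries and 83.5, 73.8 and 42.6 in naive libraries, which overlap.

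The members that fell also include Snord22 (U22), which in Xenopus acts in processing the small-subunit ribosomal RNA rather than in methylation. Snord22 lies in the noncoding gene Snhg1 at chr19:8725866-8725991. Its level was 2796, 1789 and 2142 in Hopx-high libraries, 3395, 2005 and 2592 in Hopx-low libraries, and 4468, 4495 and 2875 in naive libraries. The highest Hopx-high library was just below the lowest naive library, and the log2 fold change was -0.81 ± 0.20 (limma adjusted p = 0.00614). Snord67, whose human counterpart guides methylation of the U6 spliceosomal RNA, lies in Ckap5, the gene of a microtubule protein, and was at 49.1, 39.1 and 77.5 in Hopx-high libraries, 75.5, 50.9 and 68.6 in Hopx-low libraries, and 154, 93.6 and 103 in naive libraries. Both activated groups lay below the naive group without overlap, with a log2 fold change of -1.09 ± 0.26 in Hopx-high cells (limma adjusted p = 0.00419) and -0.82 ± 0.26 in Hopx-low cells (limma adjusted p = 0.0551), the second short of the threshold. Snord16a, a small-subunit guide in Rpl4, had 154, 77.6 and 137 in Hopx-high libraries and 282, 239 and 148 in naive libraries, which overlap (log2 fold change -0.86 ± 0.27, limma adjusted p = 0.0248). Snord90, in Rc3h2, was low throughout, at 2.45, 0.744 and 0.757 in Hopx-high libraries, 6.11, 0.592 and 0.829 in Hopx-low libraries, and 15.4, 11.7 and 3.43 in naive libraries (Hopx-high log2 fold change -2.15 ± 0.60, limma adjusted p = 0.0119).

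Snord83b and Snord89, which have no known ribosomal RNA target, rose. Snord83b, in Rpl3, had 1007, 862 and 1446 in Hopx-high libraries, 840, 1160 and 884 in Hopx-low libraries, and 619, 590 and 821 in naive libraries (Hopx-high log2 fold change 0.69 ± 0.19, limma adjusted p = 0.0124). Snord89, the tested member with no host, had 167, 147 and 204 in Hopx-high libraries, 121, 167 and 138 in Hopx-low libraries, and 120, 110 and 80.0 in naive libraries (Hopx-high log2 fold change 0.74 ± 0.21, limma adjusted p = 0.0132). For both members all 6 activated libraries exceeded all 3 naive libraries.

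**Figure D3:**
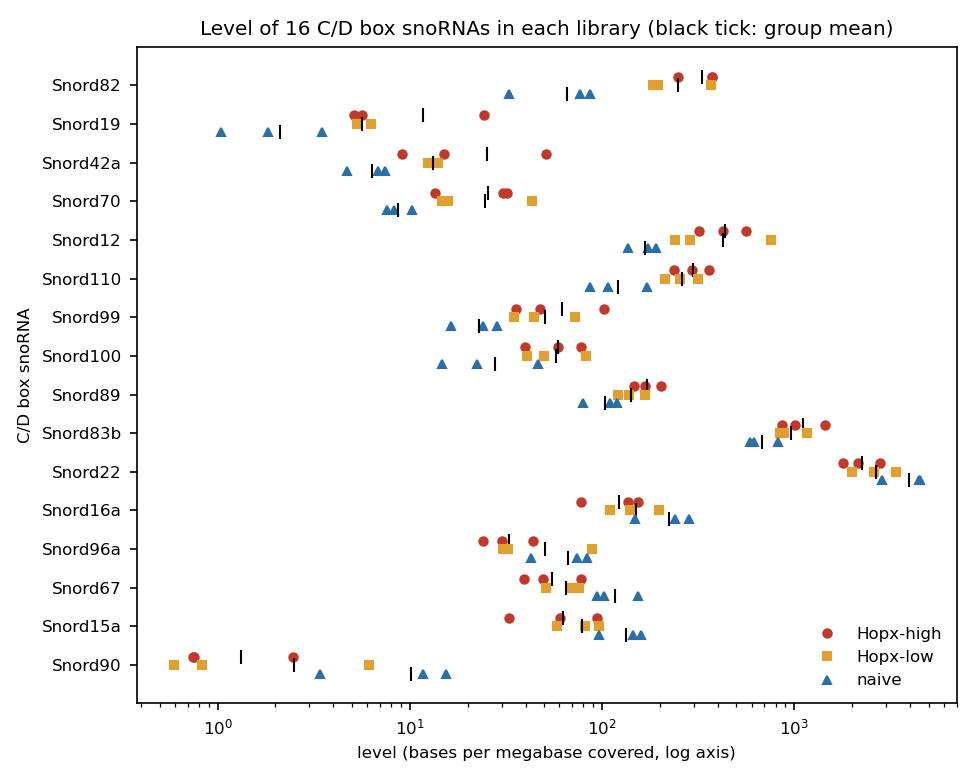
Level of the 16 called snoRNAs in each of the 9 libraries, in bases per megabase covered on a log axis, with a black tick at each group mean; circles are Hopx-high, squares Hopx-low and triangles naive libraries. Hopx-high points lie right of all naive points for 9 of the 10 members that rose (Snord100 overlaps) and left of them for 4 of the 6 that fell (Snord16a and Snord96a overlap).

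Single libraries weighed on several of these calls. Snord82, Snord110 and Snord67 passed in Hopx-high cells under all 23 alternatives tried. Without Hopx-high replicate 3, 2 members rose and 6 fell. Over all features 827 then rose and 897 fell, against 952 and 1714 with every library. Snord12, Snord19, Snord42a, Snord70, Snord83b, Snord89, Snord90, Snord96a, Snord99 and Snord100 had limma adjusted p values of 0.060 to 0.186 without that library. Without naive replicate 1, Snord12, Snord16a, Snord70, Snord90, Snord96a and Snord100 missed the threshold (limma adjusted p of 0.0547 to 0.185), and without naive replicate 2 so did Snord12, Snord16a, Snord70, Snord83b, Snord96a and Snord100 (0.0525 to 0.124). Without naive replicate 3, Snord12, Snord19, Snord42a, Snord89 and Snord99 missed it (0.0585 to 0.0855). Over all features, 749 rose and 1009 fell without naive replicate 1, 823 and 1318 without naive replicate 2, and 809 and 1168 without naive replicate 3. Leaving out Hopx-high replicate 1 ended the calls of Snord12 (0.0601) and Snord70 (0.0882), and leaving out Hopx-high replicate 2 those of Snord16a (0.103) and Snord96a (0.127). The split also moved with the scaling: it was 9 higher and 2 lower after upper-quartile scaling, 9 and 3 after quantile normalization, and 9 and 2 with library totals computed without Lars2. Snord12, Snord15a, Snord16a and Snord96a passed under none of these 3. Snord22 did not pass after upper-quartile scaling (limma adjusted p = 0.231) or without Lars2 in the totals (0.152). Upper-quartile scaling moved the median of all features to -0.09 and their calls to 1382 higher and 1183 lower, against 952 higher and 1714 lower. Their calls were 1337 higher and 1306 lower after quantile normalization, and 1207 and 1442 without Lars2 in the totals.

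Markers of other cells moved with the Hopx-high libraries. The 8 B cell markers summed to 44.0 to 72.0 in Hopx-high, 8.57 to 14.4 in Hopx-low and 11.1 to 41.1 in naive libraries, and 7 markers of monocytes, macrophages and dendritic cells summed to 37.9 to 83.7, 4.42 to 25.5 and 7.74 to 25.1 in the same groups. Of the markers tested against naive cells, 1 of 6 B cell markers (Cd79b) and 1 of 4 of the other list (Lyz2) rose in Hopx-high cells. Against Hopx-low cells, 2 of the 6 (Cd79a and Cd79b) and 1 of the 4 (Csf1r) were higher in Hopx-high cells. Over all features, 8.41% were higher against naive cells and 1.22% against Hopx-low cells. Cd8a and Cd8b1 together were at 39.3 to 45.2 in Hopx-high, 52.6 to 84.0 in Hopx-low and 126 to 149 in naive libraries. Cd8b1 was called lower than in naive cells in Hopx-high (limma adjusted p = 1.12e-05) and Hopx-low cells (0.00845). So was the CD4 T cell marker Cd3g (0.0215 and 0.0377). The 3 erythroid markers summed to 32.2 to 98.6, 26.2 to 49.3 and 23.9 to 89.7 in the same groups. The 3 stromal markers summed to 126 to 179, 124 to 188 and 173 to 237. The 4 NK and innate lymphoid markers summed to 1.32 to 6.71 in Hopx-high, 0 to 1.22 in Hopx-low and 1.63 to 2.24 in naive libraries, and the 2 neutrophil markers to 0 to 2.99 in Hopx-high, 0 in Hopx-low and 0.538 to 5.68 in naive libraries, with S100a8 listed at 0 in all of them. The 3 platelet markers summed to 0.486 to 1.08 in Hopx-high, 0.528 to 2.49 in Hopx-low and 3.74 to 4.03 in naive libraries; Itga2b, the 1 of them tested, fell in Hopx-high against naive cells (log2 fold change -1.36, limma adjusted p = 0.0426), while Pf4 is listed at 0 throughout. The call of Itga2b was lost without any 1 of the Hopx-high or naive libraries or Hopx-low replicate 2 (0.0525 to 0.132). Against naive cells, that of Cd79b was lost without Hopx-high replicate 3 or naive replicate 1 or 3 (0.0693 to 0.0914), and that of Lyz2 without naive replicate 1 (0.0604). Against Hopx-low cells, that of Cd79b was lost without Hopx-high replicate 3 (0.0991). The part of these cells in the changes of the snoRNAs was not tested.

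Hopx-low cells were compared with the same naive libraries. Snord82 and Snord110, described above, were the 2 members called, both higher, which is 3.33% of the tested members, against 8.39% of all features called in either direction, 4.75% higher and 3.64% lower. The median log2 fold change of the members was 0.02, against -0.16 over all features, and 16 members did not overlap between Hopx-low and naive libraries, where the background is 29.2% of features. At an unadjusted limma p below 0.05 there were 16 members. All features were not counted at that threshold, so this number has no background to be set against. Snord82 missed the threshold in this comparison after upper-quartile scaling (limma adjusted p = 0.0553) and quantile normalization (0.0502), and Snord110 when limma was run without its trend and robust settings (0.0618). Other settings added calls. With the replicate number as a block in the fit, 10 members were called, Snord22, Snord35b, Snord67 and Snord90 among them as lower. All features then had 970 calls, against 950 without the block. Leaving out Hopx-high replicate 2 gave 7 members and 1168 of all features. Snord100 was called higher after upper-quartile scaling and quantile normalization, where 1194 and 1277 of all features were called.

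Hopx-high cells were also set against Hopx-low cells directly. No member was called by limma, where 2.14% of all features were, 1.22% higher and 0.919% lower; the smallest adjusted p was 0.274, for Snord23, a member in Nop53, which was the only one with an unadjusted p below 0.05. The median log2 fold change was 0.01, against -0.10 over all features. Hopx-high and Hopx-low libraries did not overlap for 2 members, Snord45b and Snord72, against 16.7% of features. Snord45b was at 3.85, 3.94 and 6.09 in Hopx-high libraries and 2.00, 2.99 and 2.22 in Hopx-low libraries; Snord72 was at 2.05, 2.26 and 2.05 in Hopx-high libraries and 7.58, 3.61 and 2.31 in Hopx-low libraries. Without Hopx-low replicate 1, Snord17 was called lower in Hopx-high cells (limma adjusted p = 0.0246).

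The members varied more between libraries of a group than other features did, with a median residual SD of 0.588 on the log2 scale, against 0.392 over all features tested. In the Hopx-low group, replicate 1 was the highest library for 51 of the 60 tested members. In the Hopx-high group replicate 3 was highest for 33 members and replicate 1 for 24, and in the naive group replicate 1 was highest for 35. Hopx-low replicate 1 deviated from its group mean by a median of 0.67 (log2) over members, against -0.24 over all features. This library and Hopx-high replicate 3 are the smallest, at 105 and 110 megabases, and the richest in Lars2. Without both of them 5 members rose and 10 fell in Hopx-high against naive cells, where 981 of all features rose and 1288 fell.

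Members were then grouped by the kind of gene that contains them; over all features, 8.41% rose and 15.1% fell in Hopx-high against naive cells. Those in genes of ribosome assembly factors (Ncl, Nop56, Nop58, Gnl3, Wdr43 and others) had 4 higher and 0 lower of 11 tested in Hopx-high against naive cells, with a median log2 fold change of 0.80. Those in ribosomal protein genes had 3 higher and 2 lower of 20, with a median of 0.13. Those in noncoding host genes had 2 higher and 1 lower of 12 (median -0.06), those in other protein-coding genes 0 higher and 2 lower of 11 (median -0.35), and those in translation factor genes and Rack1 0 higher and 1 lower of 5 (median -0.49). In Hopx-low cells both called members, Snord82 and Snord110, lie in assembly factor genes. Without Hopx-high replicate 3 the counts in Hopx-high against naive cells were 2 higher and 1 lower for assembly factor genes, 0 and 2 for ribosomal protein genes and 0 and 1 for noncoding host genes. Over all features, 827 were then higher and 897 lower, against 952 and 1714 with every library. Naive libraries moved them too: the ribosomal protein genes had 1 higher and 1 lower without naive replicate 2, 2 and 1 without naive replicate 1, and 3 and 5 without naive replicate 3. Over all features the counts were 823 and 1318, 749 and 1009, and 809 and 1168 in the same order. No test of the difference between these kinds was made.

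The rows of the host genes themselves were counted next. Of 46 tested host rows, 2 rose and 11 fell in Hopx-high against naive cells, with a median log2 fold change of -0.33; the background was 8.41% higher and 15.1% lower. Without Hopx-high replicate 3, 1 rose and 7 fell, as without naive replicate 1. Over all features, 827 rose and 897 fell without the first of these libraries, and 749 and 1009 without the second. Nop56, which contains Snord110, fell, with levels of 51.0, 61.7 and 51.4 in Hopx-high libraries, 86.1, 110 and 114 in Hopx-low libraries, and 95.9, 88.8 and 98.5 in naive libraries (Hopx-high against naive log2 fold change -0.78 ± 0.21, limma adjusted p = 0.00857). The Hopx-high libraries lay below all others, while Snord110 was highest in activated cells. Rpl3, which contains Snord83b, fell by 0.81 on the log2 scale (limma adjusted p = 0.00179), and Snhg12, which contains Snord99, fell by 0.92 (limma adjusted p = 0.040), a call that did not hold without any 1 of the 6 Hopx-high and naive libraries (0.0571 to 0.146). Gas5, a noncoding gene whose span holds Snord47, rose, with levels of 1137, 841 and 1282 in Hopx-high libraries and 640, 522 and 310 in naive libraries (log2 fold change 1.19 ± 0.24, limma adjusted p = 0.00155). Snord47 itself was at 302, 161 and 253 in Hopx-high libraries and 174, 118 and 33.5 in naive libraries, which overlap (limma adjusted p = 0.204).

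**Figure D4:**
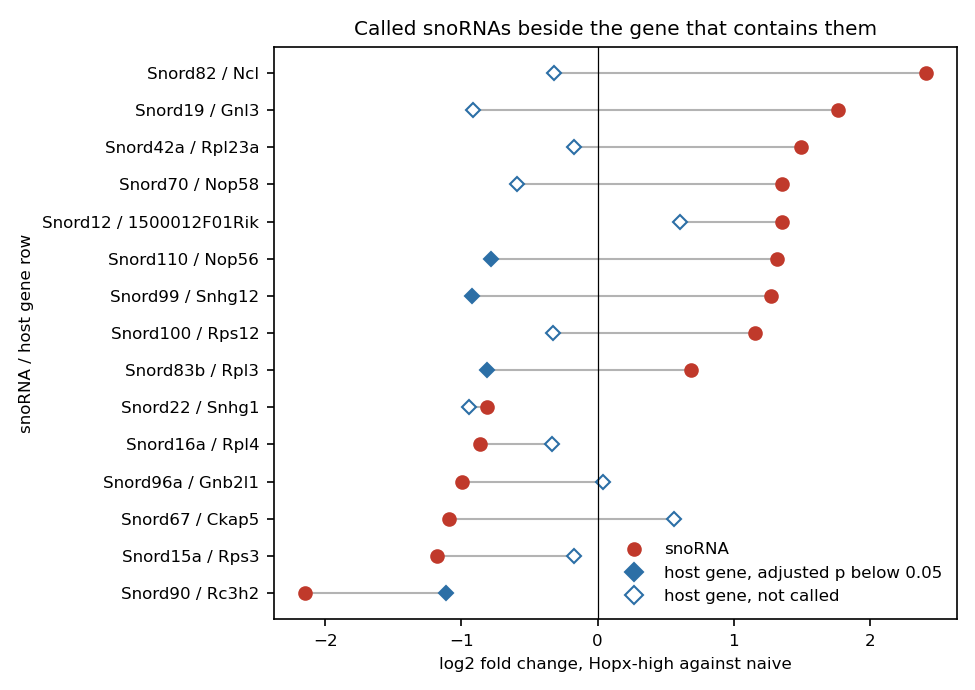
Log2 fold change in Hopx-high against naive cells (x axis) of the 15 called snoRNAs that lie in a host gene (red circles) and of the host's own row (blue diamonds, filled where the host was called). Snord82 stands at 2.41 and its host Ncl at -0.32, and Snord110 stands at 1.32 and its host Nop56 at -0.78.

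The ratio of member to host was taken within each library for 53 pairs in 36 hosts. The log2 ratio of Snord82 to Ncl was 2.73, 0.96 and 2.69 in Hopx-high libraries, 2.34, 1.07 and 1.03 in Hopx-low libraries, and -0.08, -0.78 and -0.95 in naive libraries. That of Snord110 to Nop56 was 2.51, 1.92 and 2.78 in Hopx-high libraries, 1.86, 1.20 and 0.89 in Hopx-low libraries, and 0.16, -0.04 and 0.79 in naive libraries. For both pairs the naive libraries lay below all 6 activated libraries. In Hopx-high against naive cells the ratios did not overlap for 17 pairs, higher in 15 and lower in 2, Snord67 to Ckap5 and Snord96a to Gnb2l1 (the row name of Rack1). The median difference over the 53 pairs was 0.31, while the host rows had a median log2 fold change of -0.33. Among single features 39.1% did not overlap in this comparison. No such share was computed for ratios of other features. The mean difference of the log2 ratio was 2.68 for Snord19 to Gnl3, 2.19 for Snord99 to Snhg12, 1.95 for Snord70 to Nop58 and -1.65 for Snord67 to Ckap5. With 3 libraries against 3 the exact two-sided permutation test cannot go below p = 0.1, and over the 53 pairs the smallest adjusted value was 0.312. In Hopx-low against naive cells 6 pairs did not overlap, all higher (smallest adjusted exact p = 0.589), and in Hopx-high against Hopx-low cells 5 pairs did not overlap, all higher (0.942). In these comparisons the median differences were 0.04 and 0.26, and 29.2% and 16.7% of single features did not overlap.

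In 8 of 22 pairs of members of the same host, the log2 fold changes in Hopx-high against naive cells had opposite signs. In the pairs named next, the member with the negative change was not called. Within Gnl3, Snord19 rose in Hopx-high cells, while Snord69 was at 1.13, 0.275 and 1.11 in Hopx-high libraries and 1.90, 1.40 and 2.94 in naive libraries (log2 fold change -0.75, limma adjusted p = 0.279). Within Nop58, Snord70 rose, while Snord11 was at 97.8, 43.9 and 76.4 in Hopx-high libraries and 136, 160 and 76.5 in naive libraries (log2 fold change -0.77, limma adjusted p = 0.103). The log2 ratio of Snord11 to Snord70 was 1.58, 1.63 and 1.29 in Hopx-high libraries, 1.67, 2.23 and 1.84 in Hopx-low libraries, and 3.88, 4.23 and 2.78 in naive libraries. Both activated groups lay below the naive group. Within Rpl3, Snord83b rose, while Snord43 was at 4.42, 3.73 and 2.43 in Hopx-high libraries, 5.33, 3.79 and 3.04 in Hopx-low libraries, and 6.60, 9.95 and 9.10 in naive libraries (Hopx-high log2 fold change -1.09, limma adjusted p = 0.0699). Of 22 such pairs in 13 hosts, 5 had ratios that did not overlap between Hopx-high and naive libraries, among them Snord42b to Snord4a in Rpl23a. The smallest adjusted p of the exact permutation test was 0.44. Among single features 39.1% did not overlap, and no share was computed for ratios of other features.

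Rpl13a holds 4 tested members, more than any other host. The most covered were Snord32a, with 842, 552 and 1092 in Hopx-high libraries, 1423, 836 and 548 in Hopx-low libraries, and 683, 491 and 672 in naive libraries, and Snord35a, with 668, 482 and 809 in Hopx-high libraries, 756, 531 and 441 in Hopx-low libraries, and 481, 426 and 454 in naive libraries. Their log2 fold changes in Hopx-high cells were 0.39 (limma adjusted p = 0.392) and 0.49 (limma adjusted p = 0.0782), so that neither passed, and Rpl13a itself was at 0.06. Snord33, shown above, was at 477, 239 and 492 in Hopx-high libraries, 1194, 397 and 272 in Hopx-low libraries, and 393, 266 and 292 in naive libraries, with overlap between all groups. Rpl23a holds Snord42a, Snord42b and Snord4a; Snord42b had 14.3, 11.7 and 30.5 in Hopx-high libraries and 11.4, 11.4 and 6.02 in naive libraries, which did not overlap and did not pass (log2 fold change 0.83, limma adjusted p = 0.121). The row 2410006H16Rik holds Snord49a, Snord49b and Snord65, of which Snord49a was at 135, 58.4 and 64.6 in Hopx-high libraries and 173, 157 and 53.8 in naive libraries, and Snord65 at 87.6, 61.2 and 109 in Hopx-high libraries and 118, 109 and 84.3 in naive libraries.

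Of the proteins of the C/D particle, Fbl was at 18.4, 9.82 and 8.95 in Hopx-high libraries, 27.3, 19.1 and 20.0 in Hopx-low libraries, and 14.2, 17.6 and 12.4 in naive libraries. Nop58 was at 14.0, 22 and 17.5 in Hopx-high libraries, 22.3, 28.8 and 28.1 in Hopx-low libraries, and 28.8, 34.1 and 19.8 in naive libraries. Fbl, Nop58 and Nhp2l1 (the row name of Snu13) passed in none of the 3 comparisons, and Nop56, given above, fell in Hopx-high against naive cells and against Hopx-low cells (log2 fold change -0.90, limma adjusted p = 0.0186). Of 9 proteins that assemble the particle, 1 fell in Hopx-high against naive cells, Nufip1 (log2 fold change -1.09, limma adjusted p = 0.0337). That is 11.1% of the assembly list, and Nop56 is 25% of the 4 particle proteins, where 15.1% of all features fell. In Hopx-high against Hopx-low cells 0.919% of all features fell. The call of Nop56 against Hopx-low cells was lost without Hopx-high replicate 1 or 3 or Hopx-low replicate 2 or 3 (limma adjusted p of 0.074 to 0.137), and that of Nufip1 without Hopx-high replicate 1 or 3 or any naive library (0.0729 to 0.123).

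Genes of the wider pathway of ribosome production were counted in the same way, against a background over all features of 8.41% higher and 15.1% lower in Hopx-high against naive cells, 4.75% and 3.64% in Hopx-low against naive cells, and 1.22% and 0.919% in Hopx-high against Hopx-low cells. Of 33 genes of the U3 particle and small-subunit processome, which use C/D box snoRNAs to cut the ribosomal RNA precursor, 0 rose and 6 fell in Hopx-high against naive cells, with a median log2 fold change of -0.54; 3 rose and 0 fell in Hopx-low against naive cells, and 0 rose and 2 fell in Hopx-high against Hopx-low cells. Leaving out each library in turn was added for the lists after the data were seen. The 6 that fell became 2 without Hopx-high replicate 3, 3 without naive replicate 1, 4 without naive replicate 2 and 10 without Hopx-high replicate 2. Over all features, the 1714 that fell became 897, 1009, 1318 and 2309 in the same order. The 3 that rose in Hopx-low cells became 0 without Hopx-low replicate 2, Hopx-low replicate 3 or naive replicate 1, and 1 without naive replicate 2 or 3. Over all features, the 538 that rose in Hopx-low cells became 395, 395, 402, 431 and 464 in the same order. The 2 that fell against Hopx-low cells became 0 without Hopx-low replicate 3, and 1 without Hopx-low replicate 2 or Hopx-high replicate 1 or 3. Over all features, the 104 that fell against Hopx-low cells became 34, 39, 77 and 43 in the same order. Pwp2 was at 67.0, 64.2 and 73.2 in Hopx-high libraries, 116, 137 and 125 in Hopx-low libraries, and 115, 154 and 122 in naive libraries, a log2 fold change of -0.92 against naive cells (limma adjusted p = 0.00159) and -0.88 against Hopx-low cells (limma adjusted p = 0.015). Rrp9, a U3 protein, fell by 0.67 against naive cells (limma adjusted p = 0.0153). Among 14 genes of RNA polymerase I and its factors, 3 fell in Hopx-high against naive cells, including the largest subunit Polr1a (log2 fold change -1.04, limma adjusted p = 0.0051), and none was called in the other comparisons, where 2 genes in Hopx-low against naive cells and 5 between the activated groups had an unadjusted p below 0.05. The 3 that fell became 1 without Hopx-high replicate 3, naive replicate 1 or naive replicate 3. Over all features, the 1714 that fell became 897, 1009 and 1168 in the same order. Among 13 nucleolar proteins, Pes1 and Rrs1 fell in Hopx-high against naive cells, Nop16 rose in Hopx-low against naive cells, and Pes1, Rrs1 and Mybbp1a fell in Hopx-high against Hopx-low cells. Of 8 genes of snoRNA maturation and decay, 1 fell in Hopx-high against naive cells, the exonuclease gene Xrn1 (log2 fold change -1.12, limma adjusted p = 0.0406), and of 6 proteins of the H/ACA particle and its assembly 0 were called in any comparison, with 0 of them at an unadjusted p below 0.05 in Hopx-high against naive cells, 2 in Hopx-low against naive cells and 3 between the activated groups. All features were not counted at an unadjusted p below 0.05, so those counts have no background. Of the genes named here, Polr1a and Pwp2 held their calls in Hopx-high against naive cells whichever library was left out. So did Nop16 in Hopx-low against naive cells. The call of Pwp2 against Hopx-low cells was lost without Hopx-high replicate 1 or 2 or Hopx-low replicate 2 or 3 (limma adjusted p of 0.0545 to 0.0916), and that of Rrp9 against naive cells without Hopx-high replicate 3 or naive replicate 3 (0.0616 to 0.0683). Against naive cells, Pes1 lost its call without Hopx-high replicate 1 or 2 or any naive library (0.0628 to 0.0863), Rrs1 without Hopx-high replicate 1 or 3 or naive replicate 1 or 2 (0.0527 to 0.0668), and Xrn1 without Hopx-high replicate 1 or 3 or any naive library (0.0635 to 0.206). Against Hopx-low cells, Pes1 lost it without Hopx-high replicate 1 or 2 or any Hopx-low library (0.0723 to 0.0995), Mybbp1a without Hopx-high replicate 3 or Hopx-low replicate 2 or 3 (0.0627 to 0.0765), and Rrs1 without Hopx-high replicate 3 or Hopx-low replicate 3 (0.0528 to 0.0872).

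The H/ACA box snoRNAs gave other counts than the C/D box snoRNAs in the same fit. Of 32 tested H/ACA rows, 1 rose and 16 fell in Hopx-high against naive cells, with a median log2 fold change of -1.65 and a background of 8.41% higher and 15.1% lower, and 0 rose and 5 fell in Hopx-low against naive cells, with a median of -1.04 and a background of 4.75% higher and 3.64% lower. The 16 that fell in Hopx-high cells became 10 without naive replicate 1, and the 5 in Hopx-low cells became 2 without naive replicate 1, 3 without naive replicate 2 or Hopx-low replicate 3, 8 without Hopx-low replicate 1 or Hopx-high replicate 2, 9 without Hopx-high replicate 1, and 10 without naive replicate 3. Over all features, the 1714 that fell in Hopx-high cells became 1009 without naive replicate 1. The 412 in Hopx-low cells became 175 without naive replicate 1, 242 without naive replicate 2 and 280 without naive replicate 3. They became 183 without Hopx-low replicate 1, 306 without Hopx-low replicate 3, 424 without Hopx-high replicate 1 and 593 without Hopx-high replicate 2. Snora23 was at 210, 98.2 and 134 in Hopx-high libraries, 200, 166 and 164 in Hopx-low libraries, and 539, 552 and 331 in naive libraries. Snora61, the row that rose, was at 447, 329 and 388 in Hopx-high libraries and 171, 162 and 284 in naive libraries (log2 fold change 0.95, limma adjusted p = 0.0162), a call lost without Hopx-high replicate 1 or 3 or naive replicate 1 or 2 (0.0541 to 0.0946). The difference between the families was not tested.

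The small RNA libraries of the same groups listed 1 C/D box row, Snord43, as the row with the tenth highest mean level of 2220. It took 4.55%, 1.07% and 2.18% of the bases in Hopx-high libraries, 1.89%, 0.934% and 0.523% in Hopx-low libraries, and 1.30%, 8.53% and 3.09% in naive libraries. Mir5121, which overlaps Snord33, took 2.65%, 0.748% and 2.60% in Hopx-high libraries, 1.75%, 0.734% and 1.11% in Hopx-low libraries, and 2.69%, 9.12% and 2.72% in naive libraries. Naive replicate 2 was the highest library for both rows, and the Hopx-high and naive libraries overlap for both.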

How the data were processed

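The 9 total RNA and 9 small RNA libraries were barcoded Ion libraries, made after Ribominus depletion from Trizol and mirVana extracts, per the labels' protocols. Only bedtools and the mm10 build appear in the submitters' processing notes; for the aligner, the annotation, strand and reads with more than 1 match, the sources used here say nothing. Reads from a mature snoRNA, its host's intron, an antisense gene or any near-identical copy therefore cannot be told apart. Size selection of the libraries is not given either, and it bears on RNAs as short as these. The deposited unit is a signal for each feature in each library, in a table for each assay, and 0 columns were without a sample. From the values, a deposited signal is the covered bases plus 1, scaled by library: 100% of values came out whole within 1e-06 after division. Bases were recovered and divided by the library's total in megabases (105 to 329), so no count test was used.

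The log2 of level plus 1 was fitted with limma 3.58.1 (R 4.3.3; lmFit, eBayes with trend and robust) over all 9 libraries and 11320 features, two-sided, with Benjamini-Hochberg adjustment over them and a threshold of 0.05; log2 fold changes understate the change of low features. The step was first tested on simulated data. Tables used Python 3.11.15, pandas 2.3.3 and scipy 1.17.1. The members, lists, host kinds and alternatives were chosen with earlier results of these data known. Named members were those called in a comparison, the 8 with the highest level per base, the 2 most covered in each host with 3 tested members, and the families acting in cleavage or lying in imprinted clusters; of pathway lists, members called. Overlapping called members, other pairs of a host and Snord23, Snord45b, Snord47, Snord64, Snord72 and Snord98 were named after their values were seen. Host genes were to share the member's strand, but the gene table used has no strand, so position alone decided. Alternatives were upper-quartile scaling, quantile normalization, the scale as deposited, library totals without snoRNAs or without Lars2, other limma settings, filters and pseudocounts, a replicate block, fewer groups and left-out libraries.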

Additional observations from a re-analysis of the deposited data

How the results depend on the processing

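None of the 23 alternatives reversed the direction of a called C/D box member. The 16 members called in Hopx-high against naive cells became 7 without limma's trend and robust settings and 8 to 19 when each library was left out in turn, lowest without Hopx-high replicate 3. Over all features the 2666 calls of this comparison became 2020 without trend and robust settings. They became 1724 to 3145 when each library was left out, also lowest without Hopx-high replicate 3. The 2 called in Hopx-low against naive cells became 1 without trend and robust settings, 5 with only replicates 1 and 2, 5 with only the 6 libraries compared, 5 with a pseudocount of 5, 4 without both libraries richest in Lars2, and 2 to 7 when each library was left out, highest without Hopx-high replicate 2. Over all features the 950 calls of this comparison became 614, 456, 1122, 1003 and 793 in the same order. They became 577 to 1168 when each library was left out. The 0 called in Hopx-high against Hopx-low cells became 0 to 1. The cause was not tested. Deviations of same-numbered libraries from their group means correlated at r of -0.13 to 0.19 over all features and -0.32 to 0.67 over the members, positive in 7 of the 9 pairs over the members. Differently numbered pairs ran from -0.15 to 0.21 over all features. Over the members they ran from -0.58 to 0.48, most of them negative. Not every same-numbered pair was above 0.1 on either measure, and the labels give the numbers no meaning. The numbers were therefore not taken to pair the libraries, and whether they mark an effect shared by the members was not tested. With the replicate number as a block the calls were 21 in Hopx-high against naive, 10 in Hopx-low against naive and 0 in Hopx-high against Hopx-low cells. Over all 11320 features the calls with that block were 2677, 970 and 255 in the same order, against 2666, 950 and 242 without it. Members at levels near 1 rest on few reads, which limits the precision of their values.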
